A study of Homo sapiens with 6 samples.

Results

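Solute carriers are the membrane proteins that move sugars, amino acids, ions, metals, vitamins and organic acids across the plasma membrane and the membranes of vesicles, endosomes, lysosomes and the Golgi. The genes described here are those whose symbol begins with SLC and a family number, leaving out the mitochondrial SLC25 family and the SLCO organic anion family. In all, 210 such genes were measured under a single gene symbol, out of 11963 genes on the array, through 324 of 22215 probe sets. Each gene was read from its brightest probe set, by the mean over the 6 arrays, and the other 114 probe sets of these genes served as a check. The substrate classes were glucose and other sugars (17 genes), amino acids and derivatives (48), phosphate (4), bicarbonate and protons (16), metals (21), organic ions (37) and other substrates (62), and 5 of the symbols encode no carrier.

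In the kidney, carriers of the proximal tubule recover most of the filtered glucose, amino acids, phosphate and bicarbonate. Apical carriers use the sodium or proton gradient to bring solutes in from the lumen, and basolateral carriers pass them on to the blood. Many of these proteins also cycle through endosomes, and OCRL, a phosphoinositide phosphatase of endosomes and lysosomes, is mutated in Lowe syndrome, in which the proximal tubule loses low molecular weight proteins, bicarbonate, phosphate and amino acids into the urine.

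Gene expression was measured in HK2, an established human cell line from proximal tubule epithelium. Both groups were grown in DMEM F12 medium with insulin, transferrin and selenium and transfected at 30% confluence with Dharmafect 4, one group with a non-targeting siRNA (control) and the other with OCRL siRNA, and RNA was taken after 96 h. The labels describe 3 independent experiments, and each group has 3 arrays; this small number sets the precision. The values are log2 intensities, and a difference is OCRL siRNA minus control siRNA. OCRL itself read 9.49, 9.48 and 9.50 on the control arrays and 7.52, 7.49 and 7.40 on the OCRL siRNA arrays, a difference of -2.02 (SE 0.048, adjusted p = 1.24e-05, limma) that left 24.6% of the control level. A dimmer probe set of OCRL fell less, with a difference of -1.01 that left 49.7%. By an exact permutation test (two-sided) p was 0.1 for each, the smallest that 3 arrays against 3 allow.

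The markers of the cell line were read before the carriers. Of 14 measured proximal tubule markers, 3 were called higher (ANPEP, DPP4 and MME) and 2 lower (PAX8 and SLC4A4, itself a carrier), and LRP2, AQP1, ANPEP and ALPL lay below the lower quartile of all probe sets (5.23 to 5.31) on all 6 arrays. Their summed intensity was 12.44 to 12.47 (log2) on the control arrays and 12.17 to 12.20 on the OCRL siRNA arrays. PAX8 and SLC4A4 are the brightest of them. The 8 markers that are no solute carriers overlapped only at the edge, at 11.69 to 11.73 and 11.73 to 11.77, with PAX8 the brightest. Without PAX8 the summed intensity of the other 7 was separate between the groups and higher after OCRL siRNA. It was 9.88 to 9.98 on the control and 10.48 to 10.58 on the OCRL siRNA arrays, with 3 genes called higher and 0 lower by limma. DPP4 was the brightest of them, with means of 9.44 in control cells and 10.11 after OCRL siRNA. Not every marker rose: LRP2 (-0.18), CUBN (-0.12) and AQP1 (-0.12) were lower and ALPL (0.22) higher, all without a call. The 5 epithelial markers summed to 13.95 to 14.07 and to 13.79 to 13.84, with 3 called lower (KRT8, KRT19 and EPCAM), and CDH1 was below the lower quartile on every array. Of the 5 distal nephron, 6 fibroblast, 5 endothelial and 4 leukocyte markers, 0 were called by limma in either direction, with 2 (PECAM1 and TEK) at an unadjusted p under 0.05, and their summed levels overlapped between the groups. The part of these shifts in the results on carriers was not tested, and in bulk RNA fewer cells of a type and less RNA per cell cannot be told apart. The part of the siRNA reagent itself, with 1 labelled siRNA treatment for OCRL, was not tested either.

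As a family, the solute carriers moved about as often as genes at large. Of the 210 genes, 54 passed the test (adjusted p under 0.05 over all probe sets, limma), which is 25.7%, against 26.0% of all genes. The calls were even, with 27 higher and 27 lower, against 15.5% of all genes called higher and 10.5% called lower. The median difference was -0.02 (log2) over the carriers and 0.00 over all genes. The groups did not overlap for 90 carriers, or 42.9%, against 44.9% of all genes. Without OCRL siRNA replicate 2 the count of calls was 35, the lowest of the leave-one-out fits, and the others called 38 to 50. Centring every array on its median, which moved the median of all genes to -0.05, gave 20 higher and 36 lower, and quantile normalisation gave 24 and 32. Centring ended the calls of SLC12A8, SLC35D1, SLC37A4, SLC66A1, SLC67A1, SLC6A11 and SLC9A5, all of them higher without it by 0.25 or less.

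Most of the called differences were small. Their median size was 1.25-fold, the smallest was 1.13-fold and the largest 2.53-fold. At least 1.5-fold was reached by 8 called carriers, or 3.8%, against 4.2% of all genes called at that size. These were SLC2A3, SLC11A2, SLC20A1, SLC35F5 and SLC7A7, which were higher, and SLC4A4, SLC31A1 and SLC19A2, which were lower. At least 2-fold was reached by 2 of them, SLC2A3 and SLC4A4. The share called was larger among bright genes, carriers or not. Among carriers brighter than the median probe set, 42 of 95 were called (44.2%), against 37.6% of all genes that bright, and among dimmer ones 12 of 115 (10.4%), against 10.2%. On all 6 arrays, 51 carriers were below the lower quartile.

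**Figure D1:**
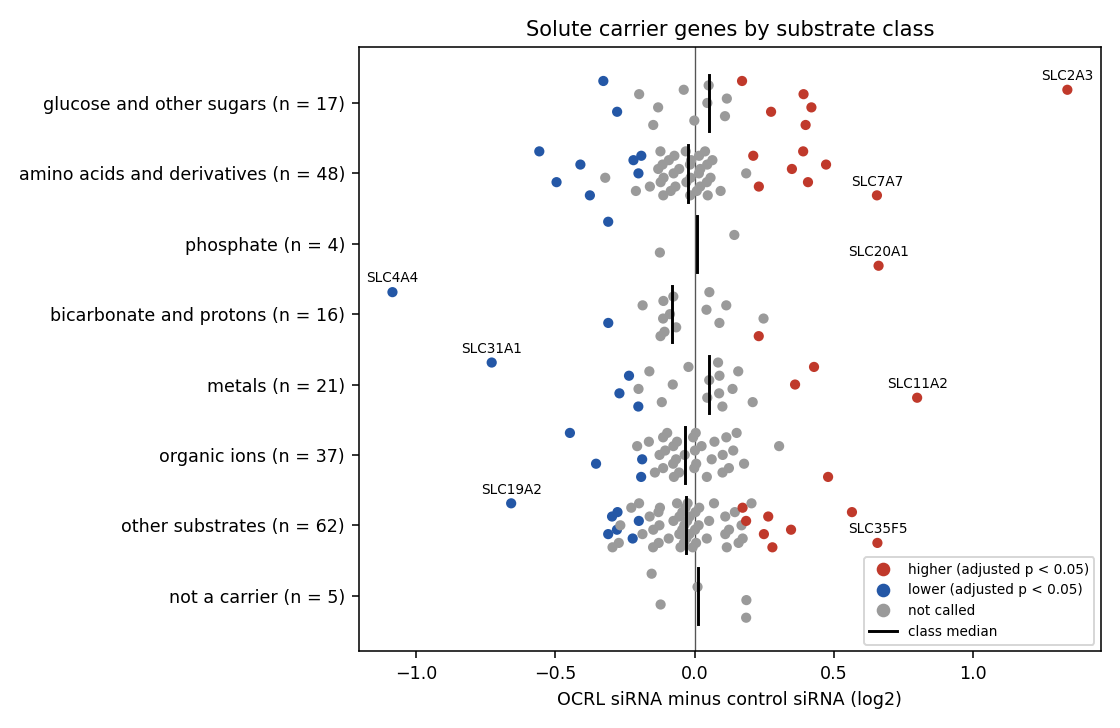
Each point is 1 solute carrier gene, placed by its difference between OCRL siRNA and control siRNA (x axis, log2) within its substrate class (y axis), with higher calls in red, lower calls in blue, uncalled genes in grey and the class median as a black bar. Class medians lie between -0.08 and 0.05, and the farthest points are SLC2A3 at 1.34 and SLC4A4 at -1.08.

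**Figure D2:**
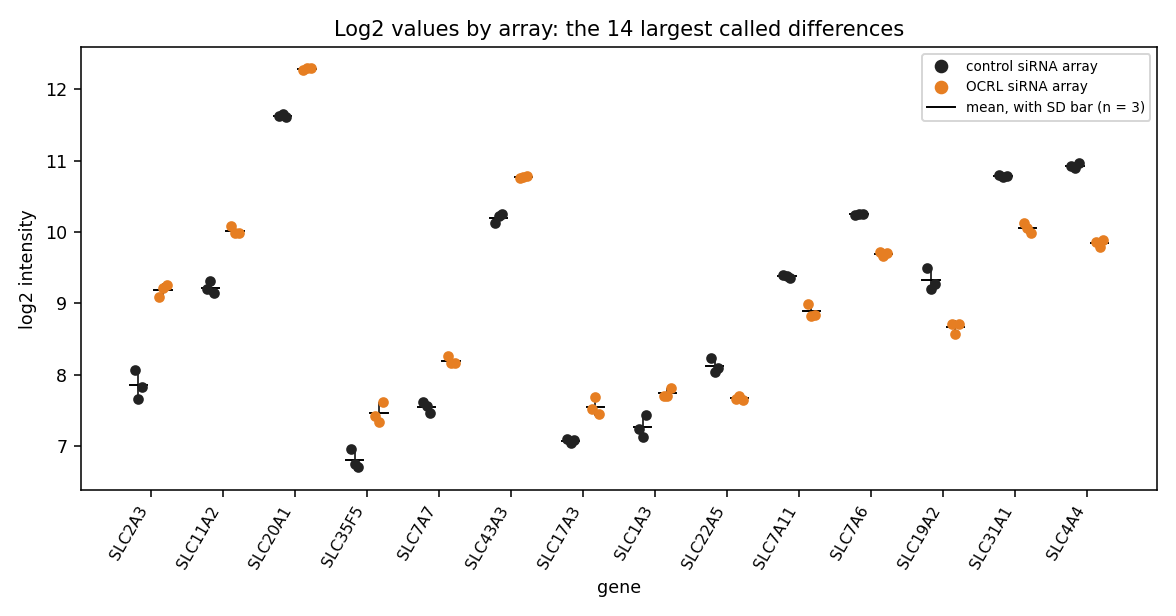
The log2 intensity (y axis) on each array is shown for the 14 called carriers with the largest differences (x axis), control arrays in black and OCRL siRNA arrays in orange, with the mean and an SD bar (n = 3). For each of these genes the points of the groups do not overlap, and SLC2A3 rises from 7.66 to 8.06 in control cells to 9.09 to 9.26 after OCRL siRNA.

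Among sugar carriers the largest rise was in SLC2A3 (GLUT3), a high-affinity facilitative glucose carrier. Of the 17 measured sugar carriers, 6 were called higher, 2 lower and 9 not called, with a median difference of 0.05. The share called was 47.1%, against 26.0% of all genes and 37.6% of all genes brighter than the median probe set. SLC2A3 read 8.06, 7.66 and 7.82 on the control arrays and 9.09, 9.21 and 9.26 on the OCRL siRNA arrays. Every OCRL siRNA array was above every control array, and the difference was 1.34 (SE 0.105, 2.53-fold, adjusted p = 2.80e-04). Its other probe sets were called higher by 1.26 and 1.26. SLC2A14, a close copy of SLC2A3, shares sequence with it, so the signal of these probe sets may belong to either gene.

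SLC2A1 (GLUT1), the widespread basal glucose carrier, also rose. It read 9.41, 9.40 and 9.31 in control cells and 9.74, 9.81 and 9.83 after OCRL siRNA, a difference of 0.42 (SE 0.050, 1.34-fold, adjusted p = 0.00144). A dimmer probe set of SLC2A1 differed by 0.23 and was not called. SLC50A1, a sugar efflux carrier, read 7.85, 7.87 and 7.81 against 8.26, 8.22 and 8.22, a difference of 0.39 (SE 0.042, adjusted p = 9.82e-04). The groups were separate for both genes.

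The remaining calls among sugar carriers were weaker. SLC37A1, a sugar phosphate exchanger, was higher by 0.40 (adjusted p = 0.0144), SLC2A10 (GLUT10) by 0.27 (adjusted p = 0.02) and SLC37A4, the glucose 6-phosphate carrier of the endoplasmic reticulum, by 0.17 (adjusted p = 0.0281). SLC2A6 (GLUT6) read 10.32, 10.33 and 10.36 in control cells and 10.08, 9.97 and 9.98 after OCRL siRNA, a difference of -0.33 (SE 0.048, adjusted p = 0.00363). SLC5A3, the sodium-coupled myo-inositol carrier that responds to osmolarity, was lower by -0.28 (adjusted p = 0.0211). SLC37A1 lost its call without OCRL siRNA replicate 2 (adjusted p = 0.0501). SLC2A10 lost it without control replicate 2 or 3 or OCRL siRNA replicate 2 or 3 (up to 0.074), SLC37A4 without any array but control replicate 1 (up to 0.0895), and SLC5A3 without control replicate 3 or OCRL siRNA replicate 1 or 2 (up to 0.0703). With the most variable probe set per gene, SLC37A4 turned to -0.07 (adjusted p = 0.571). The class had 4 to 9 calls when 1 array was left out, with the fewest without OCRL siRNA replicate 2 and 5 without control replicate 3.

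The carriers that recover filtered glucose were not called. SLC5A2 (SGLT2), the main apical sodium-glucose cotransporter of the early proximal tubule, read 6.60, 6.92 and 6.61 in control cells and 6.64, 6.80 and 6.57 after OCRL siRNA. The groups overlapped and the difference was -0.04 (95% interval -0.29 to 0.21, adjusted p = 0.835). SLC5A1 (SGLT1), of the late proximal tubule, had a mean of 5.80 in both groups, with an interval for the difference of -0.41 to 0.41. SLC2A2 (GLUT2), the basolateral partner, lay below the lower quartile on all 6 arrays.

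Amino acid carriers were called in both directions and about as often as genes at large. Of 48 measured, 7 were called higher, 7 lower and 34 not called (29.2% called, against 26.0% of all genes), with a median difference of -0.02, and 13 were below the lower quartile on every array. Median centring gave 5 higher and 10 lower. The count fell from 14 to 8 without OCRL siRNA replicate 2 and to 9 without control replicate 3, and it was 10 to 12 without the other arrays.

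The exchangers of cationic and neutral amino acids that pair with a heavy chain went opposite ways. SLC7A6 (y+LAT2) read 10.24, 10.26 and 10.26 in control cells and 9.71, 9.66 and 9.70 after OCRL siRNA, a difference of -0.56 (SE 0.040, 1.47-fold, adjusted p = 1.99e-04). SLC7A7 (y+LAT1), the basolateral exchanger mutated in lysinuric protein intolerance, read 7.61, 7.56 and 7.46 against 8.27, 8.17 and 8.16, a difference of 0.65 (SE 0.058, 1.57-fold, adjusted p = 4.51e-04). The groups were separate for each gene, with OCRL siRNA arrays below the controls for SLC7A6 and above them for SLC7A7. The other probe sets of SLC7A6 differed by -0.22, which was called, and by -0.13, which was not.

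SLC7A11 (xCT), the cystine-glutamate exchanger that supplies cystine for glutathione, read 9.39, 9.39 and 9.36 in control cells and 8.99, 8.82 and 8.84 after OCRL siRNA. The difference was -0.50 (SE 0.057, 1.41-fold, adjusted p = 0.00129), with no overlap. Of its other probe sets, 1 was called lower and 1 was not called. Their common heavy chain, SLC3A2 (4F2hc), read 8.72, 8.78 and 8.72 against 8.83, 8.80 and 8.73, and was not called (0.05, 95% interval -0.06 to 0.16, adjusted p = 0.539). SLC7A5 (LAT1), the large neutral amino acid exchanger, differed by -0.16 and missed the threshold (adjusted p = 0.0678), but passed it in 6 other settings, centring and quantile normalisation among them (down to 0.0174). Over the SLC7 family of light chains and cationic carriers, 1 of 10 was higher and 4 were lower, against 15.5% and 10.5% of all genes.

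The apical cystine system gave opposite signs for its subunits. SLC3A1 (rBAT), its heavy chain, read 7.18, 7.26 and 7.21 in control cells and 7.45, 7.71 and 7.70 after OCRL siRNA, a difference of 0.41 (SE 0.077, adjusted p = 0.0101). SLC7A9, its light chain, read 4.56, 4.80 and 4.84 against 4.33, 4.26 and 4.48, a difference of -0.38 (SE 0.092, adjusted p = 0.0274). Mutation of either subunit causes cystinuria. SLC7A9 was below the lower quartile on all 6 arrays and lost its call without control replicate 2 or 3 or OCRL siRNA replicate 1 or 2 (up to 0.0862). A dimmer probe set of SLC3A1 differed by 0.00, but was below the lower quartile on all 6 arrays.

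The glutamate carriers that were called were both higher. SLC1A1 (EAAT3), the apical glutamate and aspartate carrier of the proximal tubule, read 6.97, 6.97 and 7.02 in control cells and 7.20, 7.35 and 7.44 after OCRL siRNA (0.35, SE 0.068, adjusted p = 0.0109). A dimmer probe set of SLC1A1, below the lower quartile on all 6 arrays, differed by -0.11. SLC1A3 (EAAT1), best known from glia, read 7.24, 7.13 and 7.43 against 7.70, 7.69 and 7.82 (0.47, SE 0.083, adjusted p = 0.00732). Neither gene overlapped between groups. The other 5 measured members of the SLC1 family were not called, among them SLC1A5 (ASCT2), the glutamine carrier, at -0.06.

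The SLC38 family, whose known members carry neutral amino acids with sodium, had 1 of 8 genes higher and 2 lower. Of this family 37.5% was called, against 26.0% of all genes. The sodium-coupled SLC6A15 was lower as well. SLC38A6 was higher by 0.39 (SE 0.065, adjusted p = 0.00598). SLC6A15, a carrier of branched-chain amino acids and proline, read 9.35, 9.37 and 9.32 in control cells and 9.02, 8.94 and 8.86 after OCRL siRNA (-0.41, SE 0.054, adjusted p = 0.00223). SLC38A2 (SNAT2), induced by amino acid shortage, read 13.05, 12.98 and 13.01 against 12.83, 12.80 and 12.83 (-0.19, adjusted p = 0.0175), and SLC38A12 differed by -0.20 (adjusted p = 0.0491). These groups were separate but the last pair of differences were small. SLC38A2 lost its call without control replicate 3 or OCRL siRNA replicate 2 or 3 (up to 0.0611), and SLC38A12 without any single array (up to 0.129). SLC38A1 (SNAT1), a glutamine carrier, was not called at -0.03.

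The other calls in the class were SLC7A1 (CAT1), the main cationic amino acid carrier, at -0.22 (adjusted p = 0.0182), SLC66A1, the exporter of cationic amino acids from lysosomes, at 0.23 (adjusted p = 0.0331), and SLC6A11 (GAT3), a GABA carrier, at 0.21 (adjusted p = 0.0386). The other 4 probe sets of SLC7A1 were not called. SLC7A1 lost its call without control replicate 2 or OCRL siRNA replicate 2 or 3 (up to 0.0711), SLC66A1 without control replicate 2 or 3 or OCRL siRNA replicate 1 or 2 (up to 0.107), and SLC6A11 without any array but control replicate 2 (up to 0.121). SLC36A1, a proton-coupled amino acid carrier of lysosomes, differed by 0.18 and missed the threshold (adjusted p = 0.0659), but passed it in 5 other settings, among them without OCRL siRNA replicate 1 (0.0262).

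The 4 phosphate carriers divided by type. SLC20A1 (PiT1), a housekeeping sodium-phosphate carrier, read 11.63, 11.65 and 11.62 in control cells and 12.28, 12.29 and 12.31 after OCRL siRNA, a difference of 0.66 (SE 0.039, 1.58-fold, adjusted p = 9.85e-05). SLC20A2 (PiT2), its close relative, read 6.60, 6.49 and 6.52 against 6.26, 6.24 and 6.18, a difference of -0.31 (SE 0.049, 1.24-fold, adjusted p = 0.0046). Both were separate between the groups, in opposite directions, and both kept the call without any single array. SLC34A1 (NaPi-IIa), the main apical phosphate carrier of the proximal tubule, read 5.50, 5.69 and 5.70 in control cells and 5.66, 5.52 and 5.32 after OCRL siRNA. Its groups overlapped (-0.12, 95% interval -0.35 to 0.10, adjusted p = 0.421). A dimmer probe set of the gene was called lower by -0.25 (adjusted p = 0.0454), but was below the lower quartile on all 6 arrays. SLC34A2 (NaPi-IIb) read 5.27, 5.46 and 5.27 against 5.39, 5.78 and 5.26, differed by 0.14 and was not called (adjusted p = 0.52).

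SLC4A4 (NBCe1), the basolateral sodium-bicarbonate cotransporter through which the proximal tubule returns bicarbonate to the blood, was the carrier with the largest fall. Mutation of SLC4A4 causes proximal renal tubular acidosis. It read 10.93, 10.90 and 10.97 in control cells and 9.86, 9.79 and 9.88 after OCRL siRNA. All OCRL siRNA arrays were more than a whole log2 unit below the highest control, and the difference was -1.08 (SE 0.046, 2.12-fold, adjusted p = 3.80e-05). Its other 3 probe sets were also called lower, by -0.54, -0.85 and -0.45. The probe set at -0.45 was below the lower quartile on all 6 arrays.

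Of 16 measured carriers of bicarbonate and protons, 1 was higher, 2 were lower and 13 were not called (18.8% called, against 26.0% of all genes), with a median difference of -0.08. SLC4A7 (NBCn1), a sodium-bicarbonate cotransporter of many epithelia, read 9.43, 9.36 and 9.30 in control cells and 9.13, 9.08 and 8.96 after OCRL siRNA (-0.31, SE 0.061, adjusted p = 0.0119). Its other probe sets differed by -0.15, -0.01 and 0.19 and were not called. Those at -0.01 and 0.19 were below the lower quartile on all 6 arrays. Leaving out the probe sets of the shared kinds (suffix s or x), which may match several transcripts, turned SLC4A7 to 0.19 (adjusted p = 0.357). SLC9A5 (NHE5), a sodium-proton exchanger of recycling endosomes, was higher by 0.23 (adjusted p = 0.0269), and lost the call under median centring and without control replicate 1 or 3 or OCRL siRNA replicate 2 or 3 (up to 0.0944).

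The apical exchanger that reclaims most filtered bicarbonate was not called. SLC9A3 (NHE3) read 5.19, 5.31 and 5.21 in control cells and 5.03, 5.27 and 5.21 after OCRL siRNA, with overlapping groups (95% interval -0.24 to 0.11, adjusted p = 0.589). It was below the lower quartile of all probe sets on 4 of the 6 arrays, so its signal was dim in both groups. SLC4A2 (AE2), a chloride-bicarbonate exchanger, differed by 0.11 (adjusted p = 0.286), and SLC26A1, a sulfate and oxalate carrier, by -0.19 (adjusted p = 0.15). By limma, 0 of 5 members of the SLC26 family were called, and 0 had an unadjusted p under 0.05. In this class 6 carriers were below the lower quartile on all arrays.

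Among metal carriers, both copper carriers and the divalent metal carrier SLC11A2 changed. Of 21 measured, 3 were higher, 4 lower and 14 not called (33.3% called, against 26.0% of all genes), with a median difference of 0.05. SLC31A1 (CTR1), the high-affinity copper importer, read 10.80, 10.77 and 10.79 in control cells and 10.13, 10.06 and 9.99 after OCRL siRNA, a difference of -0.73 (SE 0.050, 1.66-fold, adjusted p = 1.75e-04). SLC31A2 (CTR2), its relative on intracellular membranes, read 8.26, 8.14 and 8.20 against 8.63, 8.57 and 8.49, a difference of 0.36 (SE 0.057, 1.28-fold, adjusted p = 0.00471). The groups were separate for both, and the importer was lower while its relative was higher.

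SLC11A2 (DMT1) carries ferrous iron and other divalent metals out of endosomes and across apical membranes. It read 9.21, 9.31 and 9.14 in control cells and 10.08, 9.99 and 9.98 after OCRL siRNA, a difference of 0.80 (SE 0.058, 1.74-fold, adjusted p = 2.12e-04). Its 4 probe sets differed in size: another bright one was higher by 0.71 and called, and 2 dimmer ones were at 0.18 and -0.04 and not called. With probe sets of the shared kinds left out, the gene was read from the last of these and stood at -0.04 (adjusted p = 0.663). Which transcripts each probe set reads was not analysed here.

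Zinc carriers of the plasma membrane were called in both directions. SLC39A8 (ZIP8), an importer of zinc and manganese, read 10.52, 10.51 and 10.51 in control cells and 10.93, 10.93 and 10.98 after OCRL siRNA (0.43, SE 0.041, adjusted p = 5.81e-04). Of its 3 dimmer probe sets 2 were also called higher, by 0.47 and 0.45. The probe set at 0.45 was below the lower quartile on all 6 arrays. SLC39A14 (ZIP14), an importer of the same family, read 12.11, 12.08 and 12.09 against 11.82, 11.84 and 11.82 (-0.27, SE 0.039, adjusted p = 0.00345). SLC30A1 (ZnT1), the zinc exporter of the plasma membrane, read 12.43, 12.51 and 12.44 against 12.19, 12.23 and 12.27 (-0.24, SE 0.047, adjusted p = 0.0118). No array of one group reached the other for these genes. SLC30A3 (ZnT3), the zinc carrier of synaptic vesicles, differed by -0.20 (adjusted p = 0.0442) and lost its call without any single array (up to 0.116). Over the families, 2 of 8 SLC39 importers and 2 of 7 SLC30 carriers were called.

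Of 37 measured organic ion carriers, 1 was higher, 4 were lower and 32 were not called (13.5% called, against 26.0% of all genes), with a median difference of -0.04. On every array 15 of the 37 were below the lower quartile, and of all genes dimmer than the median probe set 10.2% were called. SLC22A5 (OCTN2), the sodium-coupled carnitine carrier, read 8.23, 8.04 and 8.10 in control cells and 7.66, 7.71 and 7.65 after OCRL siRNA (-0.45, SE 0.059, 1.36-fold, adjusted p = 0.00228). SLC17A3 (NPT4), an apical carrier of urate and organic anions, read 7.10, 7.04 and 7.09 against 7.52, 7.69 and 7.45 (0.48, SE 0.068, 1.39-fold, adjusted p = 0.003). The groups did not overlap for either gene, and both calls held without any single array.

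The other calls in this class were each lost when some single array was left out. SLC16A4, of the monocarboxylate family, differed by -0.19 (adjusted p = 0.0259), SLC18A2 (VMAT2), the vesicular monoamine carrier, by -0.35 (adjusted p = 0.0243), and SLC47A1 (MATE1), the apical exporter of organic cations, by -0.19 (adjusted p = 0.0392). SLC18A2 and SLC47A1 were below the lower quartile on all 6 arrays. SLC16A4 lost its call without any array but control replicate 3 (up to 0.0858), SLC18A2 without control replicate 1 or 2 or OCRL siRNA replicate 1 or 2 (up to 0.0766), and SLC47A1 without any array but control replicate 1 (up to 0.121). The class count of 5 fell to 2 without control replicate 2 or OCRL siRNA replicate 2, to 3 without OCRL siRNA replicate 1 or 3, and was 6 without control replicate 1.

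The basolateral organic anion carriers of the proximal tubule overlapped between groups. SLC22A6 (OAT1) read 5.69, 5.63 and 5.51 in control cells and 5.84, 5.72 and 5.69 after OCRL siRNA (0.14, 95% interval -0.02 to 0.30). SLC22A8 (OAT3) read 5.43, 6.10 and 5.96 against 5.72, 5.84 and 5.45 (-0.16, 95% interval -0.60 to 0.27). Neither they nor SLC22A2 (OCT2), the basolateral cation carrier, which was below the lower quartile on all arrays at -0.21, passed the test. SLC13A3 (NaDC3), a dicarboxylate carrier, was not called at -0.06, nor was SLC17A5 (sialin), which exports sialic acid from lysosomes, at 0.15 (adjusted p = 0.165, or 0.0334 without OCRL siRNA replicate 1).

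**Figure D3:**
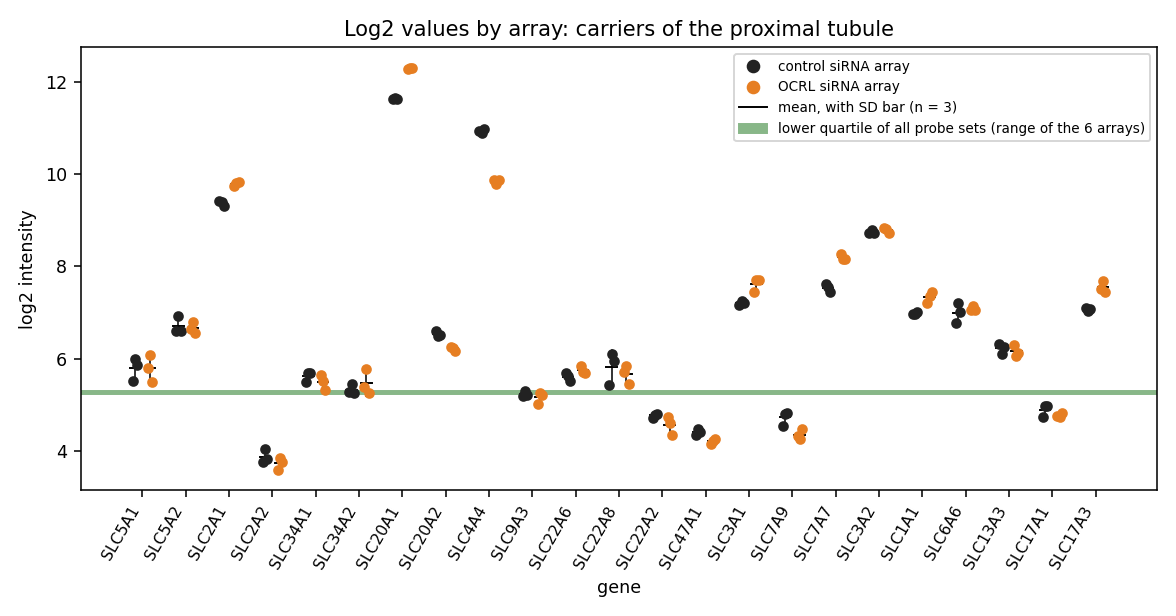
Log2 intensity on each array (y axis) is shown for carriers known from the proximal tubule (x axis), control arrays in black and OCRL siRNA arrays in orange, with means and SD bars (n = 3), and a green band for the lower quartile of all probe sets on the 6 arrays (5.23 to 5.31). SLC4A4 and SLC20A1 stand well above the band and separate by group in opposite directions, while SLC34A1, SLC9A3 and SLC22A6 lie near it and overlap.

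Carriers known from the proximal tubule and its vesicles were also read apart from the substrate classes, as a list of which 38 were measured. Among these 8 were called higher, 8 lower and 22 not called (42.1% called, against 26.0% of all genes). Below the lower quartile on all 6 arrays were 6 of them. Of all genes brighter than the median probe set, 37.6% were called. The list was chosen with earlier results of these data known, so its share is no independent result. Levels of different genes come from different probes and are not compared with each other.

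Carriers of other substrates were called at about the rate of all genes (24.2% against 26.0%), with 8 higher, 7 lower and 47 of 62 not called. SLC43A3, a purine nucleobase carrier, read 10.13, 10.23 and 10.25 in control cells and 10.75, 10.76 and 10.78 after OCRL siRNA (0.56, SE 0.049, 1.48-fold, adjusted p = 4.05e-04), and its other probe set was also called higher, by 0.37. SLC19A2, the thiamine carrier, read 9.50, 9.20 and 9.28 against 8.71, 8.57 and 8.71 (-0.66, SE 0.086, 1.58-fold, adjusted p = 0.00223). Both were separate between groups, SLC43A3 upward and SLC19A2 downward. SLC33A1, which brings acetyl-CoA into the endoplasmic reticulum, was lower by -0.28 (adjusted p = 0.00862). The class count fell from 15 to 9 without control replicate 2, to 10 without control replicate 3 or OCRL siRNA replicate 3, and was 11 without any of the others.

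The SLC35 family, whose best known members bring nucleotide sugars into the Golgi and endoplasmic reticulum for glycosylation, had 5 of 15 genes higher and 2 lower (46.7% called, against 26.0% of all genes). SLC35F5 read 6.96, 6.75 and 6.70 in control cells and 7.42, 7.34 and 7.62 after OCRL siRNA (0.66, SE 0.096, 1.58-fold, adjusted p = 0.00347). SLC35E3 was higher by 0.35 (adjusted p = 0.00266), SLC35D2 by 0.26 (adjusted p = 0.00571), SLC35H1 by 0.28 (adjusted p = 0.0252) and SLC35D1 by 0.17 (adjusted p = 0.0471). SLC35A2, the UDP-galactose carrier of the Golgi, read 10.98, 10.96 and 10.92 against 10.74, 10.59 and 10.64 (-0.30, SE 0.052, adjusted p = 0.00757), and SLC35A5 was lower by -0.28 (adjusted p = 0.0101). None of these called genes overlapped between the groups. Dimmer probe sets of SLC35A2 (0.13 and 0.03), SLC35E3 (-0.10) and SLC35D1 (0.06 and 0.01) were not called, while that of SLC35D2 was called higher by 0.30. SLC35E1, uncalled by its brightest probe set, had dimmer ones called lower by -0.22 and -0.20. SLC35H1 lost its call without control replicate 1 or 2 or OCRL siRNA replicate 1 or 2 (up to 0.0773), and SLC35D1 without any single array (up to 0.141).

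The remaining calls were SLC9D1 (also TMCO3) at -0.31 (adjusted p = 0.00641), SLC12A8 at 0.25 (adjusted p = 0.0296), SLC67A1 (formerly SLC22A18) at 0.18 (adjusted p = 0.0313), SLC14A2, a urea carrier, at -0.20 (adjusted p = 0.0474), and SLC24A1, a sodium-calcium-potassium exchanger, at -0.22 (adjusted p = 0.0476). SLC14A2 was below the lower quartile on every array. Apart from SLC9D1 these depended on single arrays. SLC12A8 lost its call without control replicate 2 or 3 or OCRL siRNA replicate 3 (up to 0.0931), SLC67A1 without control replicate 2 or 3 or OCRL siRNA replicate 2 or 3 (up to 0.107), SLC14A2 without any array (up to 0.133) and SLC24A1 without any but OCRL siRNA replicate 2 (up to 0.141). The 5 symbols that encode no carrier (SLC4A1AP, SLC2A4RG, SLC19A4P, SLC67A1-AS and SLC26A10P) had 0 calls by limma, with 3 at an unadjusted p under 0.05.

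Carriers listed as residing on intracellular membranes were called at much the same rate as the rest. Of 38 such genes, 6 were higher and 5 lower, and of the 172 others 21 were higher and 22 lower. By membrane, the called ones were SLC11A2 of endosomes, SLC66A1 of lysosomes, SLC35D2, SLC35A2 and SLC35A5 of the Golgi, SLC37A4, SLC35D1 and SLC33A1 of the endoplasmic reticulum, SLC18A2 and SLC30A3 of synaptic vesicles, and SLC35E3, whose membrane was not specified. The list is not complete. Called carriers also known from intracellular membranes, SLC31A2 and SLC9A5 among them, were not on it and were counted with the others. The rates therefore hold only for the list as drawn.

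Where a gene had several probe sets, they gave a check on the call. Of 68 carriers with more than 1 probe set, 22 were called. Among these, 12 had another probe set called the same way and 10 had none, and 0 of the 68 had probe sets called in opposite directions by limma. Of the 114 dimmer probe sets 21 were called (18.4%), against 23.1% of all probe sets. Averaging all probe sets of a gene ended the calls of SLC1A1, SLC24A1, SLC35A2, SLC35D1, SLC35E3, SLC37A4, SLC3A1, SLC4A7, SLC7A1 and SLC7A11. Leaving out the shared kinds ended those of SLC2A1, SLC3A1, SLC7A1, SLC11A2, SLC4A7, SLC14A2, SLC24A1, SLC30A3, SLC35D1 and SLC47A1. In 4 uncalled carriers, SLC2A5, SLC34A1, SLC35E1 and SLC67A2, a dimmer probe set was called, higher in SLC2A5 and lower in the others. Those of SLC2A5 and SLC34A1 were below the lower quartile on all 6 arrays.

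**Figure D4:**
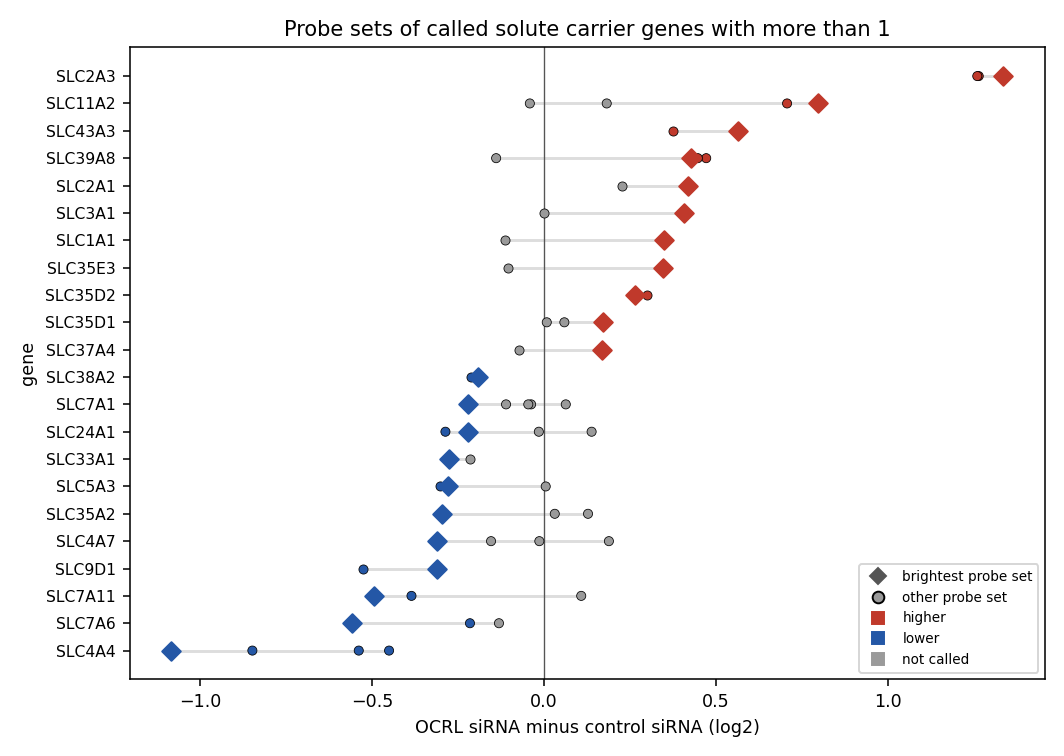
Each row is a called carrier with more than 1 probe set, and each point is the difference between OCRL siRNA and control siRNA for a probe set (x axis, log2), with the brightest as a diamond, the others as circles, higher calls in red, lower in blue and uncalled in grey. The 4 probe sets of SLC4A4 are all lower, while those of SLC11A2 spread from -0.04 to 0.80.

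Proteins that carry, anchor, energise or regulate solute carriers were read from a separate list of 32 measured genes, of which 5 were higher and 4 lower (28.1%, near the 26.0% of all genes). PDZK1, the scaffold that anchors apical carriers such as SLC34A1, read 10.88, 10.77 and 10.73 in control cells and 10.00, 9.96 and 9.95 after OCRL siRNA (-0.82, SE 0.053, 1.77-fold, adjusted p = 1.31e-04). CA12, a membrane carbonic anhydrase, read 7.50, 7.32 and 7.31 against 8.98, 9.11 and 8.99 (1.64, SE 0.068, 3.13-fold, adjusted p = 3.50e-05). Both were separate between groups. CA2, the cytosolic carbonic anhydrase, was higher by 0.22 (adjusted p = 0.0258). EZR (ezrin), which links apical scaffolds to actin, was lower by -0.19 (adjusted p = 0.0191), whereas the scaffold NHERF1 was not called at -0.05.

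TXNIP, an alpha-arrestin that drives GLUT1 into the cell and is itself induced by glucose, read 11.09, 11.16 and 11.10 in control cells and 11.72, 11.67 and 11.69 after OCRL siRNA (0.58, SE 0.043, 1.49-fold, adjusted p = 2.25e-04). FLVCR2, a carrier outside the SLC symbols, was higher by 1.18 (2.26-fold, adjusted p = 7.17e-04), and CTNS (cystinosin), the lysosomal cystine exporter, by 0.42 (adjusted p = 0.00419). NEDD4L, a ubiquitin ligase of membrane carriers and channels, was lower by -0.43 (adjusted p = 0.00121). ATP1B1, the beta subunit of the sodium pump that drives sodium-coupled transport, was lower by -0.24 (adjusted p = 0.00838), and ATP1B3 was not called at -0.02. BSG (basigin), the chaperone of monocarboxylate carriers, was not called at 0.07, nor was the kinase SGK1 at -0.08.

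Promoter sequences were read because many carrier genes are known targets of stress and nutrient responses. RefSeq promoters (GRCh38.p14) were found for 170 of the 210 carriers, 44 of them called, and the 250 bases before each of their 244 listed start sites were searched on both strands. SLC20A1 and SLC7A6 are shown, a riser and a faller that each have 1 listed start. Capitals mark matches to the E-box CACGTG, the hypoxia response core ACGTG, which also lies within the E-box, and the antioxidant response core TGACNNNGC. The first is chr2:112645689-112645938 and the second chr16:68264276-68264525, both on the plus strand.
SLC20A1: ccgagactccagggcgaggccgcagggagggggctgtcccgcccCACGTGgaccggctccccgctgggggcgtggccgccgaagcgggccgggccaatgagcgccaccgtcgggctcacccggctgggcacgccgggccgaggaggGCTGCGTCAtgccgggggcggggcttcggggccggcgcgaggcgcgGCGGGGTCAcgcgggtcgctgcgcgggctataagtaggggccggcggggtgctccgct
SLC7A6: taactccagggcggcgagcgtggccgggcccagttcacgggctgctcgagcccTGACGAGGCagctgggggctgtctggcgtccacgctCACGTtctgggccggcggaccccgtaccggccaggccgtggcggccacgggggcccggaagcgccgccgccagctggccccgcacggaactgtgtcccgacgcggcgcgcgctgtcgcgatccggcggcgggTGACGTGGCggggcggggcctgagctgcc
The promoter of SLC20A1 held an E-box, which that of SLC7A6 did not. Both held the hypoxia and antioxidant cores, SLC7A6 with the opposite direction of change. They are examples and do not stand for called carriers in general. SLC4A4, SLC31A1 and SLC2A1, also called, had no match to the E-box or to either core at any listed start.

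Over the family, the motifs were counted in promoters of carriers that were higher and of carriers that were lower, without a test of the difference. The E-box was in 5 of 35 promoters of higher carriers (14.3%) and 1 of 35 of lower ones (2.86%), against 6.34% of 35116 promoters of the same length. Among uncalled carriers it was in 16 of 174 promoters (9.20%), and over all carriers in 22 of 244 (9.02%). ACGTG was in 9 and 6, against 18.5% of all promoters, and TGACNNNGC in 6 and 6, against 10.9%. The amino acid response element TGATGNAA was in 2 and 0, against 3.14%, and the AP-1 site TGANTCA in 4 and 1, against 6.57%. The metal response core, TGCACNC or TGCGCNC, was in 8 and 11, against 24.8%, and in 8 of 28 promoters of metal carriers (28.6%). A match describes letters in these windows, and several starts of 1 gene share sequence.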

How the data were processed

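Total RNA of 6 samples was hybridised to single-colour Affymetrix arrays. The authors deposited log2 probe set intensities, made with affy and RMA per the submitters' processing notes; versions are not given in the sources used here. RMA as commonly run brings probe distributions together, which can hide a shift common to most genes, and makes differences of dim probe sets look smaller. The deposited arrays still differed a little, with medians of 7.23 to 7.24 on the control and 7.27 to 7.30 on the OCRL siRNA arrays.

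Of 22277 probe sets, 62 controls were left out. The platform annotation gave 19064 a single symbol, 1043 several and 2108 none, and the last 2 kinds were not named. The test was limma (version 3.58.1, R 4.3.3; lmFit and eBayes with a group term, two-sided). Its p-values were adjusted by Benjamini-Hochberg over the 22215 tested probe sets, with a threshold of 0.05. The fit was tested on simulated data. Figures used matplotlib 3.10.9.

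The members, substrate classes and other lists were chosen with earlier results of these data known. Named were OCRL, every called carrier, carriers of the proximal tubule list, all members of classes of 5 or fewer, and, among partners, the called genes and several others. Same-numbered arrays deviated together with correlations of 0.14, 0.12 and -0.01 and were not treated as pairs. Alternatives were a block for the replicate number, leaving out each array, quantile normalisation, median centring, limma's trend and robust options, weighted arrays, dim probe sets (mean below the median of all) left out, a 1.5-fold minimum, probe sets of the shared kinds (suffix s or x) left out, and the most variable probe set or the mean of probe sets per gene.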

Additional observations from a re-analysis of the deposited data

Results flagged for a closer look

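Probe sets annotated with several gene symbols were left out of the comparisons, and 3 of the 11 that name a solute carrier were called higher by limma. Those annotated to both SLC2A14 and SLC2A3 differed by 1.11 and 1.28 (log2, OCRL siRNA minus control siRNA). The probe set annotated to SLC35F6 and CENPA differed by 0.28. Which of the annotated genes gave these signals was not tested.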

How the results depend on the processing

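Of the 54 called carriers, 25 kept the call in every setting run for them other than the fold minimum (at most 15 each), 29 lost it in at least 1, and 21 lost it when some single array was left out. Of the 22 uncalled carriers of the proximal tubule list, 6 gained a call in some setting. Called carriers that changed sign were SLC11A2 (-0.041) and SLC4A7 (0.19) with shared probe sets left out, and SLC4A7 (0.19) and SLC37A4 (-0.072) with the most variable probe set. The SLC4A7 probe set at 0.19 was below the lower quartile on all 6 arrays. Leaving out 1 array at a time gave 35 to 50 called carriers, 4 to 9 of sugars, 8 to 12 of amino acids, 2 of organic ions at the lowest and 6 at the highest, 9 to 11 of other substrates, 2 to 3 of bicarbonate, 6 of metals and 2 of phosphate. The OCRL knockdown stayed between -2.05 and -1.99. A 1.5-fold minimum left 8 called carriers. They were 1 of sugars, 1 of amino acids, 1 of phosphate, 1 of bicarbonate, 2 of metals and 2 of other substrates. Of organic ions 0 were left by limma, as their differences ran only from -0.45 to 0.48 (log2). Without the minimum, 6 organic ion carriers had an unadjusted p under 0.05. With shared probe sets left out, 155 carriers remained and 31 were called, 2 of sugars, 7 of amino acids, 1 of bicarbonate and 4 of metals. With dim probe sets left out, 1 phosphate and 3 organic ion carriers were called, fewer genes being tested. The most variable probe set gave 3 phosphate carriers, and the mean of probe sets put the OCRL knockdown at -1.51. Median centring left 2 bicarbonate carriers. Of all calls, 59.7% were higher, 54.5% under quantile normalisation and 44.8% under median centring. With the replicate number as a block, 51 carriers were called (23 higher, 28 lower, 46 shared with the unblocked fit), and 2742 of all genes against 3105. The block ended the calls of SLC12A8, SLC16A4, SLC18A2, SLC30A3, SLC35D1, SLC37A4, SLC67A1 and SLC6A11. Whether arrays of the same number came from the same experiment is not stated in the labels, so this was not read as a paired result. Of the 115 carriers below the median probe set, 12 were called.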
